A study of Drosophila melanogaster with 30 samples.

Results

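The 10 genes described here encode the cyclic AMP (cAMP) signalling and memory machinery of the Drosophila brain, namely rut, dnc, Pka-C1, Pka-R1, Pka-R2, Epac, CrebB, Nf1, orb2 and CaMKII. They were chosen by gene name, all 10 were found among 17895 gene rows, and all 10 passed the filter on low counts that left 11269 genes. Polyadenylated RNA of male brains was sequenced from 5 genotypes kept in 2 ways, with 3 pools of 30 brains for each of the 10 groups. The mutants were dsx (w-/Y, with the dsx alleles f00683-d07058 and f01649-d09625), fru (w+/Y, fruLexA over fru4-40), Or67d (w+/Y, homozygous for an Or67d allele that carries GAL4) and Or47b (w+/Y, with Or47b alleles 2 and 3). Wild-type Canton-S (CS) males were the controls, and each genotype was housed singly (SH) or in groups (GH). dsx and fru encode the sex-determining transcription factors Doublesex and Fruitless, and Or67d and Or47b encode odorant receptors for fly pheromones. Ages are not given in the labels, and each pool mixes 30 animals.

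In this pathway, adenylyl cyclases make the second messenger cAMP, phosphodiesterases break it down, and cAMP frees the catalytic subunit of protein kinase A (PKA) from its regulatory subunits. PKA acts at synapses and through the transcription factor CREB, and fly mutants of rut and dnc were among the earliest learning mutants described. The mushroom body, a brain centre for olfactory memory, is rich in several of these proteins.

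The libraries held 37612941 to 120862312 estimated counts in total. Values below are CPM, counts per M (mega) gene counts after TMM scaling between libraries. Targeted genes were measured first. fru averaged 27.5 ± 3.81 CPM in fru mutants against 176 ± 13.8 CPM in CS, and dsx averaged 9.44 ± 0.65 CPM in dsx mutants against 16.1 ± 3.45 CPM in CS (SD, n = 6 each). Or67d had 0 counts over the 6 Or67d mutant libraries and 90 over the 6 CS libraries, while Or47b, with 0 and 6 counts, was too low to check. The gene w averaged 1.72 ± 0.295 CPM in Or67d mutants, which are labelled w+, and 0.338 ± 0.121 CPM in the w- dsx mutants, against 12.6 ± 3.28 CPM in CS. A column on dissection in a deposited table puts 6 libraries in a class called AC, without a key: CS GH replicate 3, CS SH replicate 2 and replicate 3 of each Or47b and fru group. The other 24 are notAC, and the fit behind each result carried this class as a term unless stated otherwise. Mitochondrially encoded transcripts took 12.4% to 14.1% of gene counts in the dsx libraries against 2.51% to 11.1% in all others, with no overlap, and this share is given below beside comparisons in which genes of the 10 were called. The neuronal marker genes were detected in every group. In bulk RNA, fewer cells of a type and less RNA per cell cannot be told apart.

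Per kb of exon, a scale on which genes can be compared, CaMKII and Pka-C1 had the highest levels of the 10 genes in every group and Nf1 and CrebB the lowest. CaMKII had 345 ± 14.7 CPM per kb in dsx SH and 153 ± 38.9 CPM per kb in CS GH (SD, n = 3 each). Pka-C1 had 182 ± 3.75 CPM per kb in dsx SH and 150.4 ± 12 CPM per kb in CS GH. Nf1 had 28.4 ± 1.58 CPM per kb in dsx SH and 20.9 ± 2.56 CPM per kb in CS GH. The genes differed in how much they varied among the 30 libraries, with a coefficient of variation in CPM of 49.1% for CaMKII, 36.1% for orb2 and 24.3% for dnc, and of 8.79% for CrebB. The highest group mean was 3.33 times the lowest for CaMKII, 2.54 times for orb2 and 1.23 times for CrebB. In 8 of the 10 genes the group with the highest mean was a dsx group. The exceptions were dnc, highest in Or47b GH, and CrebB, highest in CS GH.

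**Figure D1:**
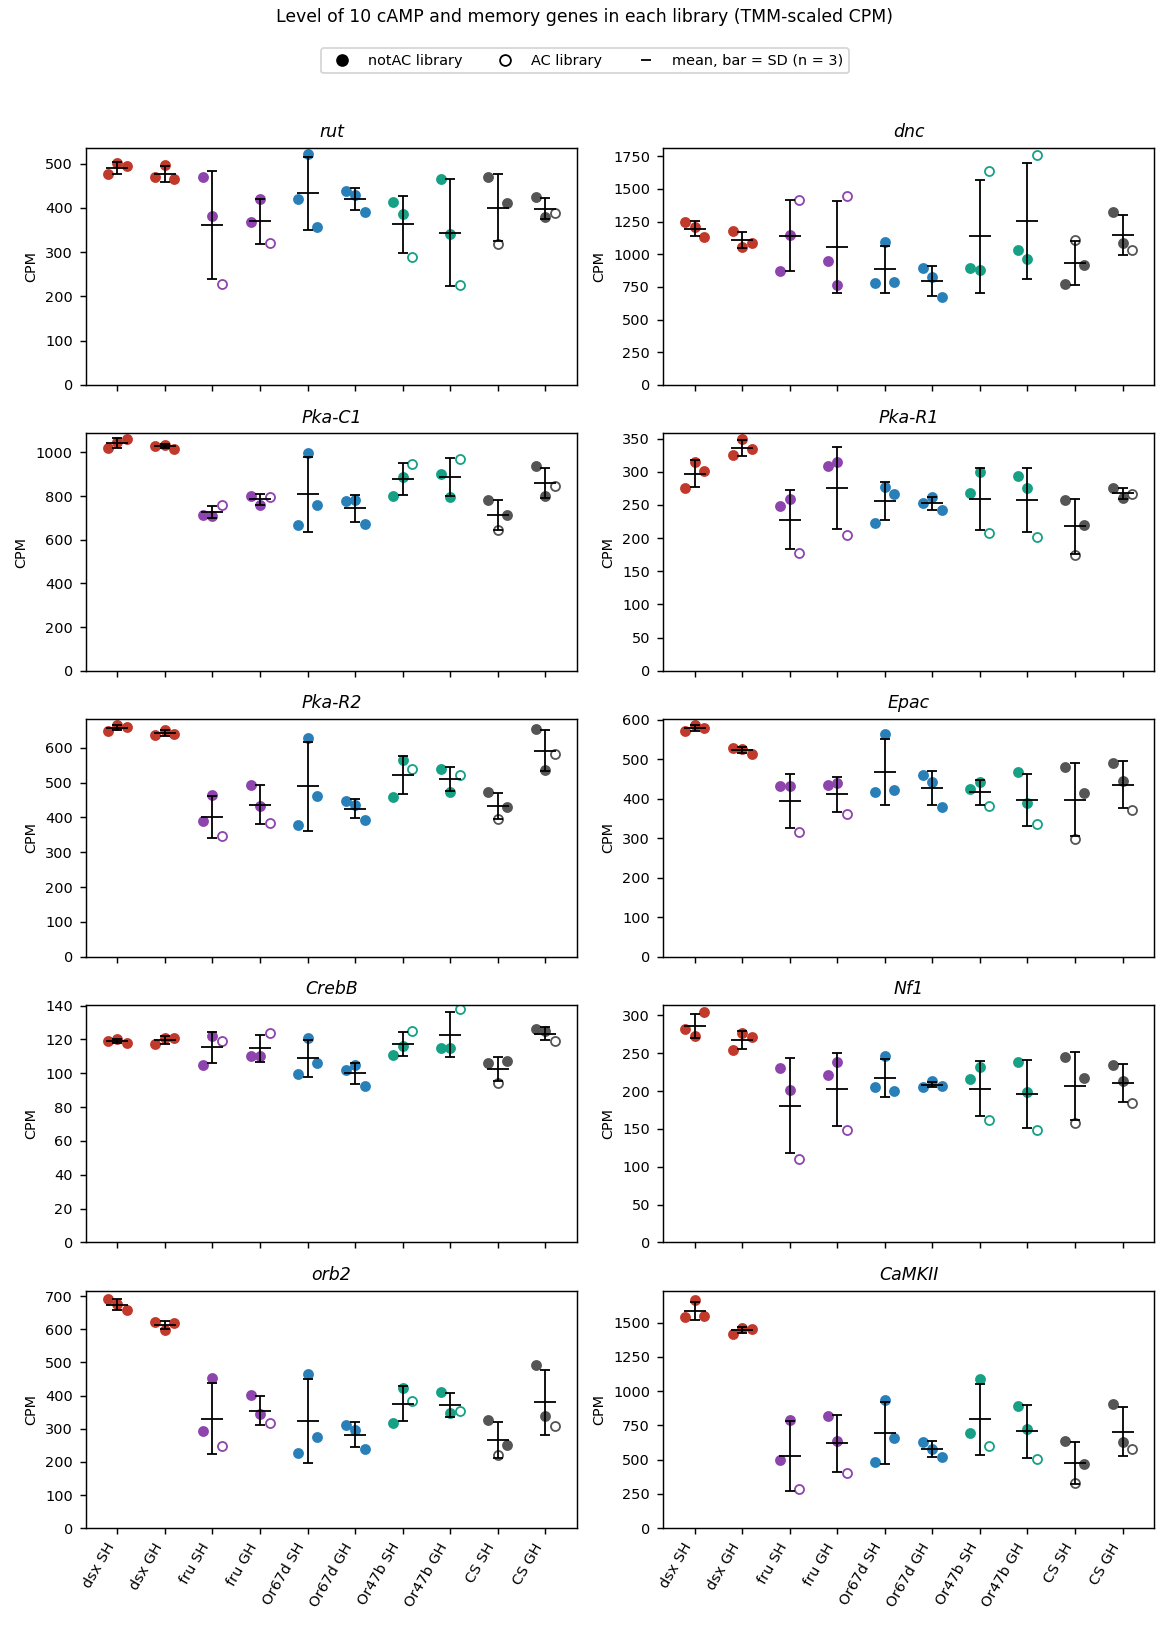
Level of each of the 10 genes in CPM (vertical axis, from 0) in every library, by genotype and housing. Points are libraries, open where the library is AC, and bars are the mean and SD of 3. For CaMKII and orb2 the 6 dsx libraries lie above all 24 others, and the open points of dnc lie high in the fru and Or47b groups.

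All 10 are large genes, and changes over all genes by exon length are given further on. Each lies in the longest of 4 equal bins of tested genes by exon length, which spans 3.41 to 71.8 kb. dnc, with 16.68 kb of exon in 17 annotated transcripts, covers 3176440 to 3343767 on the plus strand of chromosome X in the BDGP6 annotation. Another 9 annotated genes lie within or across it, none sharing exon sequence. rut (14787478 to 14826073, minus strand) and CrebB (18366357 to 18377864, plus strand) lie on the same chromosome. CaMKII lies on the minus strand of chromosome 4 at 1035288 to 1053703, and orb2 on the minus strand of 3L at 8937100 to 8954463. Pka-C1 is on 2L (9682315 to 9699297, minus strand), Pka-R1 on 3L (20816118 to 20836048, plus strand) and Pka-R2 on 2R (9993890 to 10026042, minus strand). Nf1 is on 3R (25983013 to 25995737, plus strand) and Epac on 2R (6759715 to 6798941, minus strand). orb2 has a longest annotated 3′ UTR of 5791 nt, and 0.515% of genes have a longer one. For the 10 genes that share ran from 0.515% for orb2 to 14.5% for Nf1. orb2 shares exon sequence on its own strand with CG43783, so reads of this pair may have been split. CG43783 had 36.6 ± 3.27 CPM in dsx mutants and 46.1 ± 6.18 CPM in CS (SD, n = 6 each). Exons of CrebB overlap por, and exons of rut overlap lncRNA:CR45522, each on the opposite strand, and whether the counting used strand is not given in the sources used here.

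Most of the 10 genes were higher in dsx mutants than in wild type. Averaged over both housings, 8 were higher and none was lower, at an adjusted p under 0.05 (quasi-likelihood F test of edgeR, Benjamini-Hochberg over all genes), the rule behind each call below. Over all tested genes, 20.7% were called higher in this comparison and 28% lower. Among genes with a mean of at least 100 CPM, as all 10 have, 37.4% were called higher, and among such genes in the longest bin of exon length, described above, 46.3%. The median change of the 10 genes was 0.31 on the log2 scale, against -0.049 over all tested genes, 0.098 over genes of at least 100 CPM and 0.17 over such genes in the longest bin. Every dsx library lay above every CS library for 5 of the 10 genes, where 15.4% of tested genes did so. CaMKII and orb2 rose most, and the PKA subunits, Epac and Nf1 rose by less. dnc also passed, though its call depended on the fit, as given below. rut and CrebB did not pass the test. All 4 mutants are compared with the same 6 CS libraries.

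CaMKII, the calcium/calmodulin-dependent kinase whose activity outlasts the calcium signal at synapses, had the largest change. It had 1543, 1661 and 1545 CPM in dsx SH and 1418, 1457 and 1456 CPM in dsx GH, against 635, 328 and 465 CPM in CS SH and 906, 627 and 575 CPM in CS GH. The lowest dsx library thus lay well above the highest CS library. The change averaged over housing was 1.17 ± 0.16 (log2, SE), or 2.24-fold, with an adjusted p of 4.58e-06 in edgeR's test. It was 1.53 ± 0.22 under SH (adjusted p = 1.87e-05) and 0.80 ± 0.22 under GH (adjusted p = 0.0117, edgeR). Without CS GH replicate 2 the GH difference was no longer called, at an adjusted p of 0.0973. None of the other 18 mutant libraries reached the dsx range either: the highest of them was Or47b SH replicate 2 with 1089.6 CPM. Among the 8 groups other than dsx, ordered by mean CPM, no neighbours differed by more than the larger of their SDs.

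orb2 encodes a CPEB-family RNA-binding protein that regulates translation at synapses and is needed for long-term courtship memory in males. Its levels were 691, 675 and 658 CPM in dsx SH and 621, 598 and 618 CPM in dsx GH, against 325, 220 and 252 CPM in CS SH and 492, 338 and 309 CPM in CS GH. Here too every dsx library lay above every CS library and above every other mutant library, of which Or67d SH replicate 2 was highest with 466 CPM. The change averaged over housing was 0.94 ± 0.15 (log2, SE, adjusted p = 3.49e-05 by edgeR). It was 1.26 ± 0.21 under SH (adjusted p = 9.44e-05) and 0.61 ± 0.21 under GH (adjusted p = 0.0422). The GH call was kept without CS GH replicate 1 (0.81) and lost without any of the other 5 libraries of the comparison (0.49 to 0.63). It was also lost with notAC libraries only, with no filter on low counts and in the deposited normalized table (adjusted p of 0.112, 0.0534 and 0.0562).

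The 3 PKA subunits were each called higher on average and under SH, and none was called under GH. The GH changes were 0.269 for Pka-C1, 0.179 for Pka-R1 and 0.0838 for Pka-R2 (log2, adjusted p of 0.0997, 0.228 and 0.709 by edgeR). Pka-C1, the main catalytic subunit, had 1019.9, 1049 and 1062 CPM in dsx SH and 1031, 1035 and 1017 CPM in dsx GH, against 780.3, 644 and 715 CPM in CS SH and 936, 801 and 846 CPM in CS GH. All 6 dsx libraries were above all 6 CS libraries, and the averaged change was 0.415 ± 0.083 (log2, SE, adjusted p = 0.000291 by edgeR). Pka-R2, the type II regulatory subunit, had 650, 665 and 660.3 CPM in dsx SH and 637, 652 and 639.8 CPM in dsx GH, against 473, 397 and 431 CPM in CS SH and 654, 537 and 583 CPM in CS GH. The groups overlapped through CS GH replicate 1, and the averaged change was 0.33 (adjusted p = 0.0093 by edgeR). Pka-R1, the type I regulatory subunit, had 275, 315 and 301 CPM in dsx SH and 325, 349 and 335 CPM in dsx GH, against 258, 175 and 220.4 CPM in CS SH and 276, 260.4 and 266 CPM in CS GH. A single CS library, GH replicate 1, lay just above the lowest dsx library, and the averaged change was 0.25 (adjusted p = 0.00772 by edgeR).

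Of the genes that set the cAMP level and read it without PKA, rut did not differ detectably, and whether dnc was called depended on the fit. Epac and Nf1 rose slightly. rut encodes an adenylyl cyclase that responds to calcium and G proteins together, and had 464 to 501 CPM in the dsx libraries against 319 to 469 CPM in CS. Its change of 0.11 (log2) had an adjusted p of 0.422, and its 95% interval ran from -0.118 to 0.347. dnc, the cAMP phosphodiesterase, had 1058 to 1248 CPM in dsx and 776 to 1324 CPM in CS, with a change of 0.32 (adjusted p = 0.0462 by edgeR). Its call was kept without CS GH replicate 1 or CS SH replicate 3, was lost without any of the other 10 dsx or CS libraries, and was lost in 6 of 10 other settings. These were the fits without the term for AC (0.15, adjusted p = 0.505), with notAC libraries only (0.18, adjusted p = 0.213), with only the groups compared (0.19, adjusted p = 0.135), with a replicate block (0.33, adjusted p = 0.0523), with no filter on low counts (0.32, adjusted p = 0.0605) and with the mitochondrial share as a covariate, described further on. Epac, a cAMP-activated exchange factor for the small GTPase Rap, had 514 to 587 CPM in dsx, all above the 298 to 491 CPM of CS, and a change of 0.30 (adjusted p = 0.00288 by edgeR). Nf1 is a Ras GTPase-activating protein that cAMP signalling in flies also depends on. It had 255 to 304 CPM in dsx, all above the 158 to 245 CPM of CS, with a change of 0.23 (adjusted p = 0.0208 by edgeR) that was lost without CS GH replicate 2, CS SH replicate 3 or dsx SH replicate 3. CrebB, the fly CREB protein, had 119 ± 1.22 CPM in dsx SH and 119.6 ± 2.49 CPM in dsx GH, against 102 ± 7.26 CPM in CS SH and 123 ± 3.95 CPM in CS GH (SD, n = 3 each), and its change of 0.11 had an adjusted p of 0.142.

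Within single housing, 9 of the 10 genes were higher in dsx than in CS, all but rut, where 18.7% of all genes were called higher. In the longest bin of exon length 33.1% were. The SH calls of CaMKII, orb2, Pka-C1, Pka-R2 and Epac held without any 1 library. That of dnc was lost without CS SH replicate 1 or 2 or dsx SH replicate 1 or 2, that of Pka-R1 without CS SH replicate 3 or dsx SH replicate 2, that of Nf1 without CS SH replicate 2 or 3 or dsx SH replicate 1 or 3, and that of CrebB without CS SH replicate 2 or any dsx SH replicate, at adjusted p of at most 0.151. Without the AC term the SH calls of dnc and Nf1 were lost, and with notAC libraries only that of CrebB. With the mitochondrial share as a covariate, described further on, all 9 were lost. Within group housing, CaMKII and orb2 were called higher, where 8.12% of all genes were and 10.6% of those in the longest bin. Every dsx SH library lay above every CS SH library for all 10 genes, where 26.2% of tested genes did so, and every dsx GH library above every CS GH library for 7 genes, where 24.3% did. The difference of these differences, which is the housing effect in dsx minus that in CS, was called for none of the 10 genes by edgeR, with 4 at an unadjusted p under 0.05 where 13.4% of genes were, and for none by DESeq2. A fit of the dsx and CS libraries alone called it for Pka-R2 and CrebB.

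**Figure D2:**
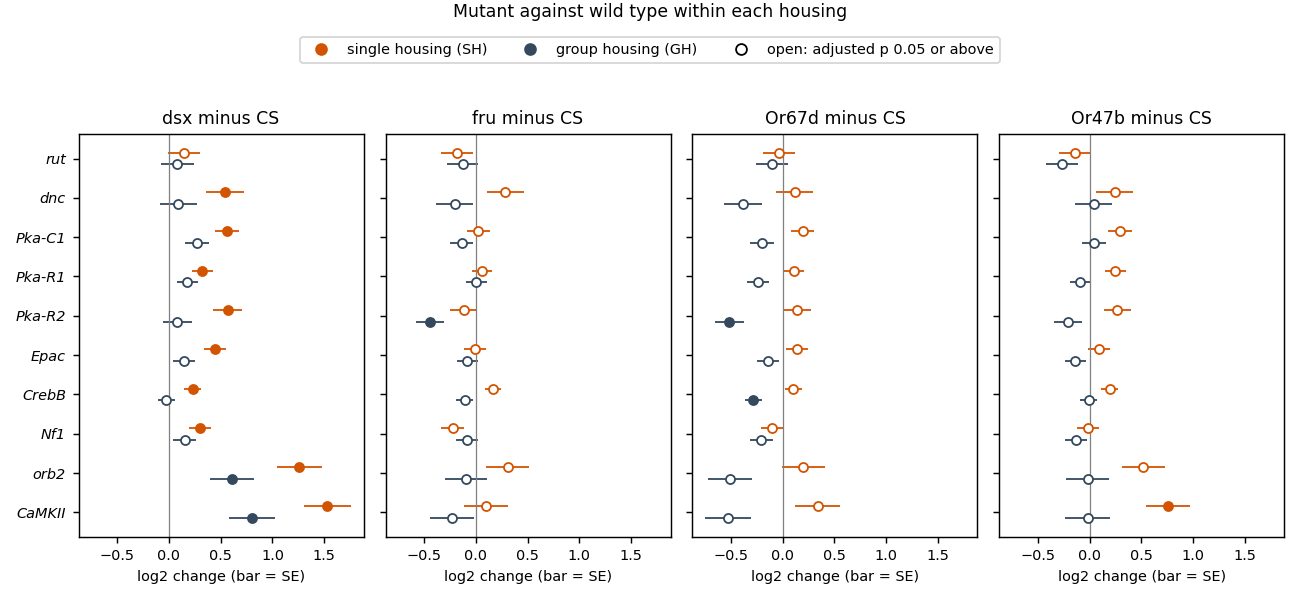
Change of each gene in each mutant against CS (horizontal axis, log2, bars are SE) under single and group housing. Filled points passed an adjusted p of 0.05. In dsx, 9 genes passed under SH and 2 under GH, and in the other mutants 4 points passed in all.

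Several measures moved with the dsx difference, and their part in it was not tested apart from the values given here. The dsx mutants are also the only genotype labelled w-, with w at 0.338 ± 0.121 CPM against 12.6 ± 3.28 CPM in CS (SD, n = 6 each). The dsx alleles, w and strain thus cannot be told apart in dsx against CS. The share of mitochondrially encoded counts was 13.9%, 14.1% and 12.9% in dsx SH and 13.1%, 12.4% and 13.2% in dsx GH, against 4.56%, 2.99% and 3.06% in CS SH and 10.3%, 7.45% and 4.42% in CS GH. Since the dsx range of this share overlaps no other group, genotype and share cannot be told apart for dsx. The libraries nearest in share were fru SH replicate 2 with 11.1%, which had 791 CPM of CaMKII and 452 CPM of orb2, and CS GH replicate 1 with 10.3%, which had 906 CPM of CaMKII and 492 CPM of orb2. Each of these 4 values lay below the lowest dsx library of its gene, at 1418 CPM for CaMKII and 598 CPM for orb2.

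In an alternative fit with this share as a covariate, none of the 10 genes was called in dsx against CS, where 18.2% of all genes were. CaMKII then differed by 0.47 (adjusted p = 0.0988 by edgeR) and orb2 by 0.19 (adjusted p = 0.456), and dnc and Pka-R2 changed sign, to -0.24 and -0.052. The share's own term, which compares libraries within groups, was positive and called for orb2, at 0.10 ± 0.018 per percentage point (log2, SE, adjusted p = 0.00115 by edgeR), for CaMKII at 0.096 ± 0.021 (adjusted p = 0.00897), for dnc at 0.078 ± 0.018 (adjusted p = 0.0139) and for Pka-R2 at 0.052 ± 0.015 (adjusted p = 0.0386). Over all genes, 3.71% were called with a positive term. Over the 24 libraries that are not dsx, the level of orb2 (log2 CPM) followed the share with a Pearson r of 0.879 and a Spearman rho of 0.889, each with a permutation p of 1e-05, the smallest that 100000 resamples can give, and 0.0001 after adjustment over the 10 genes. Without the 2 libraries farthest from the median share r was 0.843, and over the 18 notAC libraries of these it was 0.875. CaMKII gave an r of 0.685 and a rho of 0.731 (permutation p = 0.0003 and 0.0001, adjusted p = 0.0015 and 0.0005), 0.651 without the 2 farthest libraries, and 0.832 over the 18 notAC libraries. CrebB, Pka-R2 and Pka-C1 gave an r of 0.657, 0.628 and 0.569, each with an adjusted permutation p under 0.05, while rut (-0.055), Nf1 (0.164) and Epac (0.326) did not pass. dnc and Pka-R1 passed by Spearman's rho (0.461 and 0.51, adjusted p = 0.035 and 0.019) and not by Pearson's r (0.421 and 0.43, adjusted p = 0.057 each). Within the 6 dsx libraries none of the 10 genes passed (lowest adjusted p of r 0.25, exact permutation test). The permutations over the 24 other libraries moved values freely among libraries that differ in genotype, housing and dissection class. Their p-values may thus be too small.

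**Figure D3:**
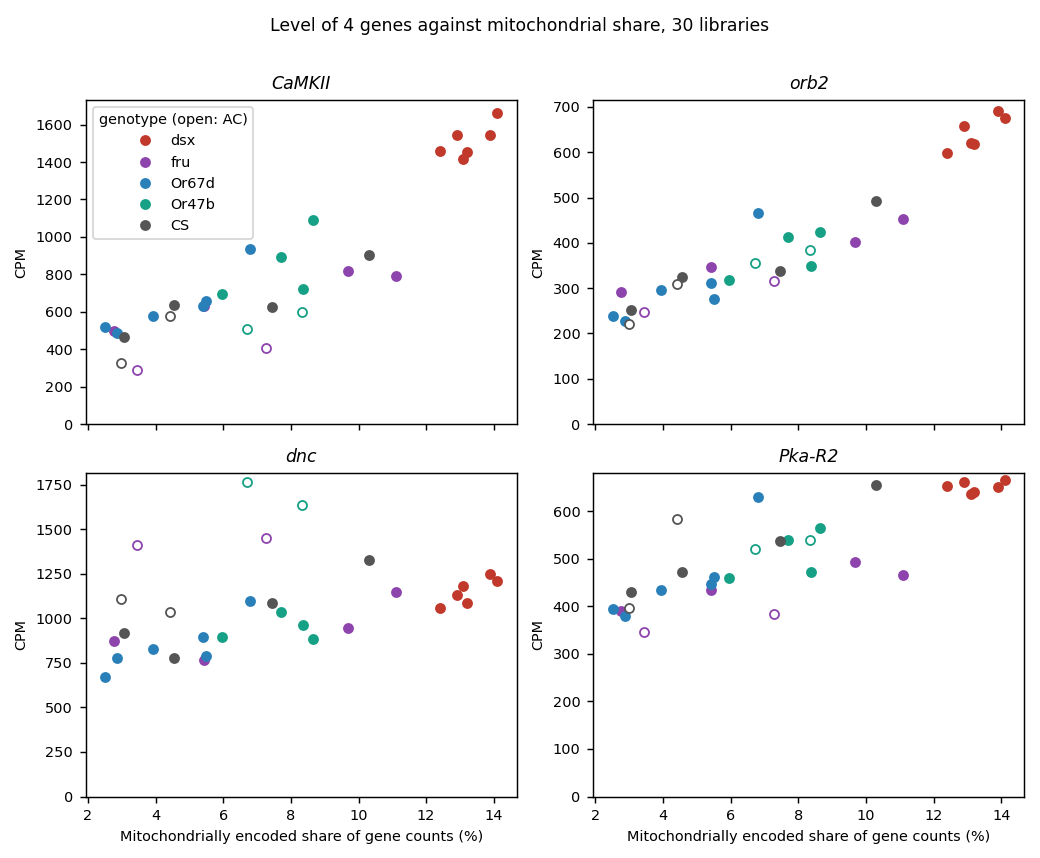
Level in CPM (vertical axes) of the 4 genes with a called term for the share against the mitochondrially encoded share of gene counts in percent (horizontal axes) in the 30 libraries, coloured by genotype and open where AC. The 6 dsx libraries lie to the right of 12%, with no other library there, and orb2 follows the share among the other 24 libraries.

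Markers of cell types moved with the dsx difference too. Of 5 neuronal markers 4 were called higher in dsx, and their summed level was 7799 to 8342 CPM against 4599 to 6865 CPM in CS. Of 7 mushroom body markers 4 were called higher and 1 lower, with sums of 3274 to 3537 CPM in dsx against 1900.4 to 2853 CPM in CS. Of 6 glial markers 1 was higher and 4 lower, with sums of 3651 to 3814 CPM in dsx against 3753 to 4713 CPM in CS, so that neuronal and glial lists moved in opposite directions. Of the tissues around the brain, 4 of 5 tested fat body markers were higher (1269.7 to 1902 CPM in dsx, 607 to 1596 CPM in CS), 3 of 3 haemocyte markers were higher (37.2 to 48.4 and 27 to 51.8 CPM) and 5 of 6 muscle markers lower (7.36 to 42.8 and 36.5 to 139 CPM). The fat body genes called were Yp1, Yp2, apolpp and Lsp2. More fat tissue and more expression of these genes cannot be told apart here. No marker of these 3 lists was at 0 in every dsx library or in every CS library. Gene length moved with it as well: the median change of all tested genes rose across the 4 bins of exon length from the shortest, at -0.199, -0.14, -0.031 and 0.105 (log2).

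In the fru mutant, Pka-R2 was the one gene of the 10 to change on average, and it was lower. It had 390.1, 465 and 346 CPM in fru SH and 494, 434 and 383 CPM in fru GH, against 473, 397 and 431 CPM in CS SH and 654, 537 and 583 CPM in CS GH. The 3 GH libraries of fru lay below the 3 of CS, while the SH libraries overlapped. The averaged change was -0.28 (adjusted p = 0.0319 by edgeR), where 13.6% of all genes were called lower, and -0.44 ± 0.135 under GH (adjusted p = 0.0262), where 7.65% were. The averaged call was lost in 5 of 10 other settings, namely without the AC term, with notAC libraries only (adjusted p = 0.255, the highest of the 10), with no filter on low counts, with transposon rows included and in the deposited normalized table. The GH call was lost in 4 of the 10, with notAC libraries only, with only the groups compared, with transposon rows included and in the deposited normalized table. The averaged call was kept in 5 of the 12 fits that left out 1 library, those without CS GH replicate 2, CS SH replicate 2 or 3, fru GH replicate 1 or fru SH replicate 2. The GH call was kept without CS GH replicate 2 or fru GH replicate 1 and lost without any of the other 4. The other 9 genes had averaged changes of -0.155 to 0.107 in fru against CS, none of which passed, and under SH none of the 10 passed, where 13.6% of all genes did.

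The mitochondrial share was 2.76%, 11.1% and 3.45% in fru SH and 9.68%, 5.43% and 7.27% in fru GH, against 4.56%, 2.99% and 3.06% in CS SH and 10.3%, 7.45% and 4.42% in CS GH. With it as a covariate Pka-R2 was still lower in fru, with changes of -0.341 on average (adjusted p = 0.00242 by edgeR) and -0.444 under GH (adjusted p = 0.00584). Markers of other cells moved in fru as well. All 3 haemocyte markers were higher, with sums of 66.6 to 168 CPM in fru against 27 to 51.8 CPM in CS, and 3 of 6 muscle markers were lower, with sums of 15.1 to 96.5 CPM in fru against 36.5 to 139 CPM in CS. Of 6 glial markers 2 were higher and 2 lower, with sums of 3208 to 5164 CPM in fru and 3753 to 4713 CPM in CS, 2 of 5 photoreceptor markers were higher, and none of 5 neuronal and 7 mushroom body markers was called. The part of these in the Pka-R2 difference was not tested.

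In the Or67d mutant none of the 10 genes passed averaged over housing, where 11.4% of all genes did, nor under SH, where 5.64% did. Changes ran from -0.186 for Pka-R2 to -0.00307 for Pka-C1 on average, and from -0.098 for Nf1 to 0.338 for CaMKII under SH (log2). Under GH, Pka-R2 and CrebB were lower, where 4.64% of all genes were called lower. Pka-R2 had 447, 435 and 394 CPM in Or67d GH against 654, 537 and 583 CPM in CS GH, and CrebB had 102, 105 and 92.7 CPM against 126, 125 and 119 CPM. Neither gene's groups overlapped, nor did those of dnc and Pka-C1, which were not called. The share of all genes without overlap is not given for this comparison. Between other groups of 3 libraries it was 10.5% (CS SH below CS GH) and 24.3% (dsx GH above CS GH). Pka-R2 changed by -0.51 ± 0.14 (log2, SE, adjusted p = 0.0176 by edgeR) and CrebB by -0.28 ± 0.082 (adjusted p = 0.0291). The mitochondrial share was 5.41%, 3.94% and 2.51% in Or67d GH against 10.3%, 7.45% and 4.42% in CS GH, and with it as a covariate the changes were -0.31 (adjusted p = 0.158) and -0.18 (adjusted p = 0.21). Without CS GH replicate 1 or Or67d GH replicate 3 neither was called, and CrebB was also lost without CS GH replicate 2 or Or67d GH replicate 1. With notAC libraries only Pka-R2 lost its call, and CrebB lost its call with no filter on low counts and with transposon rows included. All 10 genes had negative changes in this comparison, with a median of -0.26 against -0.0144 over all genes. The median was -0.0628 over genes of at least 100 CPM and -0.101 over such genes in the longest bin of exon length.

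In the Or47b mutant none passed averaged over housing, where 13.4% of all genes did, or under GH, where 3.79% did. Changes ran from -0.203 for rut to 0.369 for CaMKII on average, and from -0.265 for rut to 0.0431 for Pka-C1 under GH (log2). Under SH, CaMKII was higher, where 4.2% of all genes were called higher, with 694, 1089.6 and 599 CPM in Or47b SH against 635, 328 and 465 CPM in CS SH. The groups overlapped, since Or47b replicate 3 lay below CS replicate 1. The change was 0.76 ± 0.22 (log2, SE, adjusted p = 0.0325 by edgeR). It was lost without the AC term, with notAC libraries only, with only the groups compared, and without any of CS SH replicates 2 and 3 and Or47b SH replicates 2 and 3. The mitochondrial share was 5.96%, 8.65% and 8.33% in Or47b SH and 4.56%, 2.99% and 3.06% in CS SH, and with it as a covariate the change was 0.35 (adjusted p = 0.352). In the same comparison 4 of 6 muscle markers were lower, with sums of 12.9 to 52.3 CPM in Or47b SH, and the part of this in the CaMKII difference was not tested.

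Set against each other, the mutants differed in these genes mainly through dsx. In dsx against Or67d, 9 of the 10 were higher, all but rut, where 24% of all genes were. In dsx against Or47b, 7 were higher, where 20.6% of all genes were, all but dnc, Pka-R1 and CrebB. In fru against dsx, 8 were lower, all but dnc and CrebB, where 24.2% of all genes were. In the longest bin of exon length, which holds all 10 genes, these shares were 41.4%, 40.7% and 45.5%. CaMKII differed by 1.26 ± 0.15 in dsx against Or67d, by 0.80 ± 0.16 in dsx against Or47b and by -1.23 ± 0.16 in fru against dsx (log2, SE, highest adjusted p 0.000324 by edgeR), the largest change of the 10 in each. The smallest were 0.182 for rut in dsx against Or67d, 0.013 for CrebB in dsx against Or47b and -0.0744 for CrebB in fru against dsx. All 9 calls in dsx against Or67d held without any 1 library, as did all in fru against dsx but rut, whose call was kept only without fru GH replicate 3 or fru SH replicate 1. In dsx against Or47b, rut and Pka-R2 were lost without Or47b GH replicate 2, the first also without Or47b SH replicate 2 and the second also without Or47b SH replicate 1, and Pka-C1 without Or47b GH replicate 2, Or47b SH replicate 1 or dsx SH replicate 2. With the mitochondrial share as a covariate, CaMKII (-0.67, adjusted p = 0.00623) and Nf1 (-0.41, adjusted p = 0.0122) were still lower in fru than in dsx, and Nf1 was still higher in dsx than in Or47b (0.32, adjusted p = 0.0279), while no gene of the 10 was called in dsx against Or67d.

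Without dsx, differences were small. In fru against Or47b, Pka-C1 (-0.22), Pka-R2 (-0.31) and CaMKII (-0.43) were lower, with adjusted p from 0.0158 to 0.0349 by edgeR, where 14.8% of all genes were called lower, and in Or67d against Or47b, CrebB (-0.18, adjusted p = 0.0293) and CaMKII (-0.46, adjusted p = 0.0372) were, where 11.4% were. Each of these 5 was lost when only notAC libraries were used. The mitochondrial share was 2.76% to 11.1% in fru and 2.51% to 6.8% in Or67d, against 5.96% to 8.65% in Or47b. With it as a covariate Pka-R2 (-0.256, adjusted p = 0.0156) and CaMKII (-0.349, adjusted p = 0.0216) were still called in fru against Or47b and Pka-C1 was not (-0.193, adjusted p = 0.0534). In Or67d against Or47b neither CrebB (-0.0888, adjusted p = 0.405) nor CaMKII (-0.118, adjusted p = 0.664) was. Of the markers, 3 of 3 haemocyte genes were higher and 2 of 5 neuronal genes lower in fru than in Or47b. There 2 of 5 tested fat body markers were also higher. Of 6 glial markers 2 were higher and 2 lower, of 5 photoreceptor markers 1 and 1, and 1 of 7 mushroom body markers was lower. In Or67d against Or47b, repo (glia), Lsp2 (fat body) and trio (mushroom body) were higher and sNPF (mushroom body) was lower. The part of these in the gene differences was not tested. Of 12 fits that left out 1 library, Pka-R2 kept its call in 9, CrebB in 6, CaMKII in 4 in each comparison and Pka-C1 in 3. In fru against Or67d none of the 10 was called by edgeR, where 25.8% of all genes were, none had an unadjusted p under 0.05, and none was called by DESeq2. Changes there ran from -0.0926 for Pka-R2 to 0.26 for orb2.

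Single against group housing, the social experience that the study varied, changed none of the 10 genes by edgeR's test in any genotype or on average over the 5. In CS, 1.86% of all genes were called, in dsx 0.0177%, in fru 0.169%, in Or67d 0.0266%, in Or47b 0.213%, and on average 1.28%. In CS all 10 genes had negative changes, with a median of -0.297 against 0.0012 over all genes, and 6 had an unadjusted p under 0.05, where 18.5% of genes did. The median was -0.0505 over genes of at least 100 CPM and -0.0826 over such genes in the longest bin of exon length. Pka-R2 had 473, 397 and 431 CPM in CS SH and 654, 537 and 583 CPM in CS GH, a change of -0.45 ± 0.135 (log2, SE, adjusted p = 0.0731 by edgeR). CrebB had 106, 94.1 and 107 CPM in CS SH and 126, 125 and 119 CPM in CS GH, a change of -0.26 (adjusted p = 0.0774). Pka-R1 had 258, 175 and 220.4 CPM in CS SH and 276, 260.4 and 266 CPM in CS GH, a change of -0.32 (adjusted p = 0.0818). For these 3 and Pka-C1 every SH library lay below every GH library, where 10.5% of tested genes did so. The DESeq2 Wald test called Pka-R2 (adjusted p = 0.0331) and Pka-R1 (adjusted p = 0.0402) in CS, where it called 5.88% of all genes.

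CaMKII changed by -0.60 ± 0.22 with housing in CS (95% interval -1.04 to -0.151, adjusted p = 0.127 by edgeR), orb2 by -0.51 (adjusted p = 0.178) and Pka-C1 by -0.27 (adjusted p = 0.191). The mitochondrial share, 4.56%, 2.99% and 3.06% in CS SH and 10.3%, 7.45% and 4.42% in CS GH, moved with these differences. With it as a covariate the changes in CS were -0.25 for Pka-R2, -0.242 for CaMKII and -0.103 for orb2, with adjusted p of 0.401, 0.587 and 0.804. Each CS housing group also has 1 AC library. In dsx the largest change with housing was that of Pka-R1, -0.18, and 3 genes (orb2, CaMKII and Epac) had every SH library above every GH library while Pka-R1 had every SH library below, where 10.8% and 10.6% of genes did so, with adjusted p of 1. On average over the 5 genotypes changes ran from -0.148 for Pka-R1 (95% interval -0.241 to -0.0553, adjusted p = 0.153 by edgeR) to 0.027 for Epac (95% interval -0.0693 to 0.124). For CaMKII the interval of the averaged change was -0.257 to 0.141 and for rut -0.124 to 0.156.

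**Figure D4:**
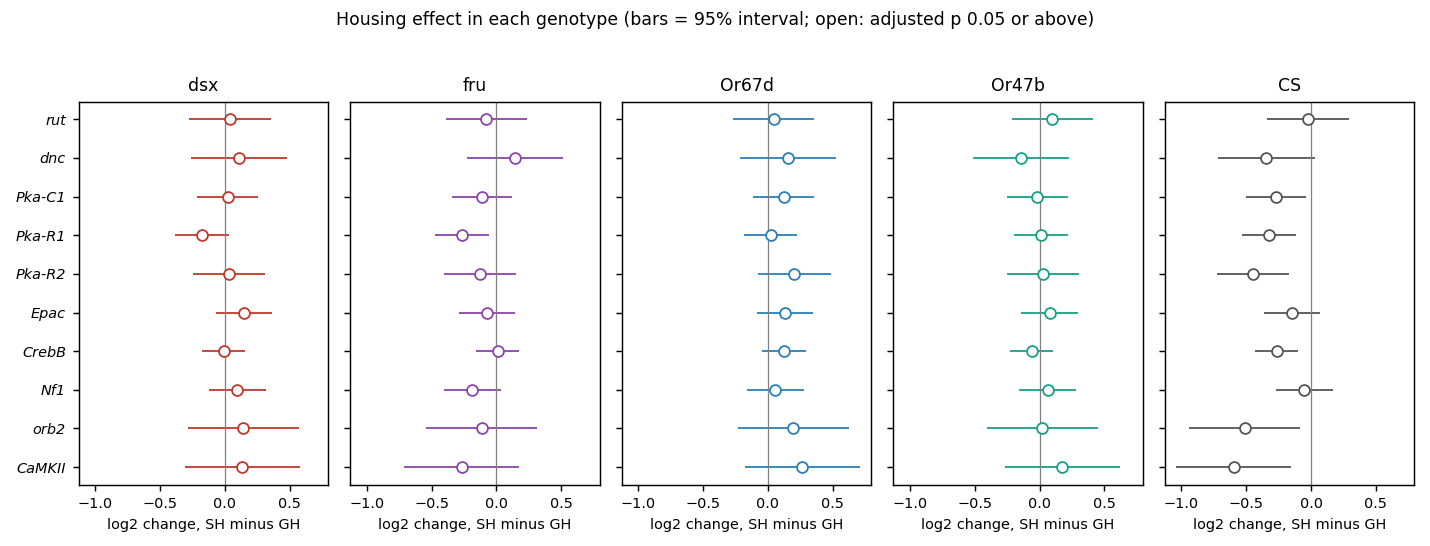
Change of each gene with housing in each genotype (horizontal axis, log2, SH minus GH). Bars are 95% intervals and all points are open, since none passed an adjusted p of 0.05. In CS all 10 points lie below 0, and the intervals of 6 genes exclude 0.

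The mutants' housing effects minus that of CS were positive for all 10 genes in Or67d, Or47b and dsx and for 8 in fru, and none passed by edgeR, where 0.00887% (dsx), 0.222% (fru), 0.177% (Or67d) and 0.0177% (Or47b) of all genes did, or by DESeq2. The median of the 10 genes was 0.389 in Or67d, 0.239 in Or47b, 0.293 in dsx and 0.216 in fru. Over all tested genes it was -0.0163, 0.000763, -0.00945 and 0.0141. Over genes of at least 100 CPM in the longest bin of exon length it was 0.148, 0.101, 0.136 and 0.0295. The 4 comparisons share the CS libraries, so they are not separate observations. In Or67d 6 genes had an unadjusted p under 0.05, where 14.3% of all genes did, among them Pka-R2 with 0.65 ± 0.19 and CrebB with 0.39 ± 0.11 (adjusted p = 0.197 each by edgeR). Without Or67d SH replicate 1, 2 of these differences were called.

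The dissection class was called for 6 of the 10 genes. In AC libraries, with group in the same fit, 5 of the 10 genes were lower and 1 higher than in notAC libraries, where 28.1% of all genes were called lower and 26.6% higher. Among genes of at least 100 CPM those shares were 46.8% and 18.9%. In the longest bin of exon length, which holds all 10 genes, they were 51.2% and 18.4%, and the median difference of all tested genes was 0.182, 0.0499, -0.0734 and -0.184 (log2) across the 4 bins from the shortest. CaMKII differed by -0.73 ± 0.14 (log2, SE, adjusted p = 0.000113 by edgeR), Nf1 by -0.57 ± 0.067 (8.11e-07), rut by -0.49 (0.000154), Pka-R1 by -0.42 (1.05e-05) and Epac by -0.36 (7.42e-05). dnc went the other way, at 0.54 ± 0.11 (adjusted p = 0.000251). The AC libraries of dnc had 1413 and 1448 CPM in fru SH and GH, 1636 and 1762 CPM in Or47b SH and GH, and 1110.1 and 1035 CPM in CS SH and GH. In fru and Or47b these were above every notAC library of their genotype, and in CS they were not. The phosphodiesterase and the cyclase of the set therefore moved apart with this class. In the same libraries all 5 photoreceptor markers were higher, with sums of 1468 to 2292 CPM in AC and 814 to 1602 CPM in notAC libraries, and 6 of 7 mushroom body markers were lower, with sums of 1786 to 2504 CPM in AC and 2249 to 3537 CPM in notAC libraries. Of 5 neuronal markers 2 (nSyb and Syn) were lower, with sums of 4599 to 6206 CPM in AC and 5391 to 8342 CPM in notAC libraries. Of the tissues around the brain, 3 of 3 haemocyte markers (35.8 to 168 CPM in AC, 25.5 to 73 CPM in notAC), 4 of 6 muscle markers (50.8 to 139 and 7.36 to 108 CPM) and 2 of 5 tested fat body markers (871 to 3878 and 450.3 to 1902 CPM) were higher. The part of these in the gene differences was not tested. Or67d and dsx have no AC library.

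**Figure D5:**
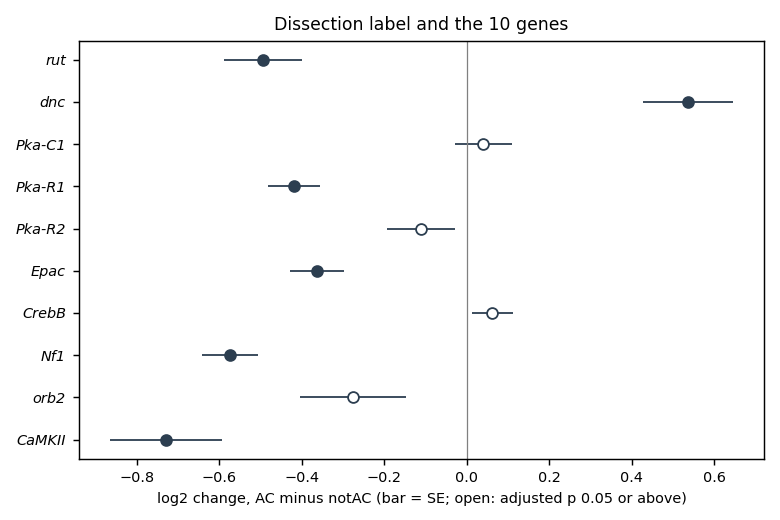
Difference of each gene between AC and notAC libraries (horizontal axis, log2, AC minus notAC, bars are SE) with group in the fit. Filled points passed an adjusted p of 0.05. dnc lies to the right, and CaMKII, Nf1, rut, Pka-R1 and Epac lie to the left.

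Among the 24 notAC libraries most of the 10 genes varied together. Pearson's r of log2 CPM over the 45 pairs ran from 0.245 to 0.968 with a median of 0.778, and 20 pairs were above 0.8. The 3 lowest were pairs of rut, at 0.245 with CrebB, 0.324 with Pka-R1 and 0.387 with dnc, while rut had an r of 0.816 with Epac and 0.792 with Nf1. These libraries include the 6 dsx libraries, and the points share depth, batch and the mitochondrial share. Over the same libraries the genes most like CaMKII were CG11360 (r = 0.995) and fwe (0.99), and those most like orb2 were CG2258 (0.993) and NfI (0.983). Pka-C1 was most like Ggamma30A (0.977), a G protein gamma subunit, and Syt1 (0.976), the calcium sensor of synaptic vesicles. For Pka-R1 they were amon (0.924) and Syt4 (0.92), for Pka-R2 CG32647 (0.97) and pHCl-1 (0.964), and for dnc nmo (0.978) and CG2865 (0.976). For Nf1 they were CG34384 (0.964) and flfl (0.95), and for Epac plum (0.966) and CG32206 (0.965).

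Of 89 further genes listed for the same pathways, 86 matched a gene row and 84 were tested. In dsx against CS 51 of the 84 were higher and 2 lower, where 20.7% and 28% of all genes were, with a median change of 0.25 (log2) against -0.049 over all genes. Of genes of at least 100 CPM 37.4% were called higher, and of such genes in the longest bin of exon length 46.3%. These shares also stand beside the counts per list in dsx below. The 84 genes were not matched to other genes for level or length. In fru 13 were higher and 5 lower, where 14% and 13.6% of all genes were. In Or67d 2 were higher and 2 lower, where 5.75% and 5.69% of all genes were, and in Or47b 1 was higher and 2 lower, where 5.51% and 7.92% were. The share of mitochondrial counts given above moved with dsx for these genes as well.

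In dsx the list with the highest median was that of local translation, at 0.69, with 8 of 9 tested genes higher. Tob had 585 ± 16.6 CPM in dsx and 304 ± 98.8 CPM in CS (SD, n = 6 each), a change of 0.96 (adjusted p = 2.74e-05 by edgeR). orb, the other fly CPEB gene, had 111 ± 4.38 CPM in dsx and 64.4 ± 15.3 CPM in CS. nos, a translational repressor, had 550 counts over the 6 dsx libraries and 4 over the 6 CS libraries. Of 12 partners of CaMKII and calcium genes 8 were higher, among them dlg1, a synaptic scaffold (608 ± 32.4 CPM in dsx, 432 ± 63 CPM in CS), and the calcineurin subunit CanB2 (112 ± 6.8 and 75.7 ± 11.3 CPM). Of 9 genes of cAMP synthesis and breakdown 7 were higher, with the adenylyl cyclase Ac3 at 404 ± 16.7 CPM in dsx and 255 ± 55.5 CPM in CS.

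Upstream of the cyclases, 9 of 16 G protein and amine receptor genes were higher in dsx and 1 lower. The octopamine receptors Octbeta1R (254 ± 9.18 CPM in dsx, 150.4 ± 35.8 CPM in CS) and Octbeta3R (132 ± 3.55 and 82.6 ± 10.5 CPM) and the G protein subunit Galphaq (450.4 ± 23.3 and 267 ± 53 CPM) had the smallest adjusted p, at most 3.38e-05 by edgeR. Of 12 Ras and Rap pathway genes 8 were higher, among them Rap1 (240.3 ± 14.3 CPM in dsx, 196 ± 24.6 CPM in CS), and 1 was lower, the MAP kinase kinase Dsor1 (48.9 ± 0.255 and 59.2 ± 3.52 CPM, adjusted p = 0.00071). Of 4 tested PKA anchors and relatives 1 was higher, rg, at 1053 ± 54.8 CPM in dsx and 899.7 ± 81 CPM in CS. Of 7 tested CREB partners and relatives 2 were higher, Atf3 and Atf6, the second at 180.4 ± 8.01 CPM in dsx and 92.8 ± 33.4 CPM in CS. Of 16 other memory genes 9 were higher, among them the protease gene teq (339 ± 26.1 and 247 ± 64.1 CPM).

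In fru some genes on these lists, which hold none of the 10 genes, had larger averaged changes than Pka-R2. Arc1, the capsid-forming relative of mammalian Arc, had 163 ± 23.4 CPM in fru and 73.9 ± 17.3 CPM in CS, a change of 1.15 ± 0.11 (log2, SE, adjusted p = 3.03e-08 by edgeR). The cell adhesion gene Fas2 had 238 ± 40.7 CPM in fru and 162 ± 8.65 CPM in CS, and the NMDA receptor subunit Nmdar2 was lower, at 137 ± 16.1 CPM in fru and 213 ± 22.9 CPM in CS (adjusted p = 1.53e-05). Akap200, a PKA anchor, was higher in fru (227 ± 15 and 169 ± 17.1 CPM) and in Or67d (203 ± 33.3 CPM). In Or67d the phosphodiesterase Pde1c was lower, at 312 ± 31.2 CPM against 393 ± 47.5 CPM in CS (adjusted p = 0.000739), and the dopamine and ecdysteroid receptor DopEcR was lower, with a change of -0.365 (log2, adjusted p = 0.00673). teq was higher in Or67d, at 267 ± 32.7 CPM (adjusted p = 0.0475). In Or47b the dopamine receptor Dop2R changed by -1.01 ± 0.25 (log2, SE, adjusted p = 0.00939) and CanB2 was higher, at 95.9 ± 12.8 CPM (adjusted p = 0.0108). In Or47b Arc1 was lower, at 55.4 ± 7.67 CPM (adjusted p = 0.0198), the opposite direction to fru. With housing, averaged over the genotypes, 1 of the 84 changed: jeb, a secreted ligand of the receptor Alk, changed by -0.425 ± 0.068 under SH relative to GH (log2, SE, adjusted p = 0.000744 by edgeR).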

How the data were processed

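Pools of 30 male brains were dissected in buffer into RNAlater, and polyadenylated RNA was sequenced as paired reads with a kit that keeps strand, per the labels' protocols. The tools named are STAR, Salmon and DESeq2 and the build BDGP6, per the submitters' processing notes, with no versions given in the sources used here. The deposited table of estimated counts (11.9% of values not whole) was rounded before testing. A second deposited table holds normalized signal, by a method not stated, and was used for an alternative with limma on log2(signal + 1). Rows that are no gene (6383, transposons among them) held 0.6% to 1.38% of a library's counts and entered an alternative only.

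Tests used R 4.3.3 and edgeR 4.0.16: filterByExpr, TMM scaling and quasi-likelihood F tests from 1 fit of 30 libraries, with terms for 10 groups and for the AC class, 19 residual degrees of freedom, and Benjamini-Hochberg adjustment over 11269 genes within each of 28 comparisons. SH was compared with GH, each mutant with CS and with the other mutants, averaged over housing or within it. limma 3.58.1 and DESeq2 1.42.0 gave alternatives. CPM uses TMM-scaled gene totals, and CPM per kb the union exon length. A count of 3 equals 0.0282 to 0.0785 CPM, far below the levels of the 10 genes. The mitochondrial share is the percent of gene counts from mitochondrially encoded genes. No 2 libraries had identical counts. The p-values measure the spread between pools. Scripts were tested on simulated data.

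The 10 genes, the lists and the tests were chosen with earlier results of these data known, and the terms and correlations for the AC class and the mitochondrial share were chosen for report after seeing the data. In each comparison the called genes are given by value and the others by value, range or count. From the related lists, up to 3 called genes a list with the smallest adjusted p in a mutant against CS are named, plus any called for averaged housing, and some of these stand in the counts alone; Dop2R and DopEcR were named after their values were seen. Of the listed symbols, Akap1, yu and Creb3L1 matched no row. The 2 genes most like a member were those with the highest Pearson r of log2 CPM (prior count 2) over the notAC libraries.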

Additional observations from a re-analysis of the deposited data

How the results depend on the processing

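Calls among the 10 genes numbered 9 of 40 for mutants against CS averaged over housing, 15 of 80 within housing, 29 of 60 between mutants, and 0 for housing within genotypes, for averaged housing and for differences in the housing effect. With the mitochondrial share as a covariate the first 3 counts were 1, 1 and 5, and 6 values changed sign: dnc in dsx against CS averaged (-0.243) and under SH (-0.212) and in dsx against Or67d (-0.224), Pka-R2 in dsx against CS averaged (-0.0519), and CrebB in dsx against CS under SH (-0.0142) and in dsx against Or67d (-0.0295), all log2. The cause was not tested. DESeq2's Wald test called 2 housing effects (Pka-R1 and Pka-R2 in CS), and fits of only the groups compared called 2 differences in the housing effect (Pka-R2 and CrebB, dsx minus CS). The other alternatives kept each count within 1.5 times (no AC term, notAC libraries only, DESeq2 size factors, no filter on low counts, transposon rows included, the deposited normalized table, replicate block). Leaving out 1 library gave 7 to 10, 10 to 18 and 23 to 36 for the first 3 counts, 0 to 2 for housing and for its differences, and 0 for averaged housing. The highest counts came without Or67d SH replicate 2, which had the highest Or67d value of CaMKII and orb2, and the lowest within housing came without dsx SH replicate 2. Housing calls were 2 without CS GH replicate 2 or Or67d SH replicate 2, and the differences were 2 without Or67d SH replicate 1. Replicate numbers are shared by the groups. With group and the AC class fitted, same-numbered libraries did not deviate together (135 pairs, r from -0.379 to 0.171, median -0.0125, 12 above 0.1). Most AC libraries are replicate 3, and the fit took out that class before the check. The check thus cannot decide whether the numbers pair libraries. With the replicate block the counts were 8, 15 and 28, and 0 for the other 3. Over single genes and alternatives, 192 values lost a call, 43 gained one, 6 changed sign while called in either fit, as given above, and 5319 kept their side of the threshold, some of them uncalled values that crossed 0. With 3 libraries a group, AC libraries in 6 groups and dsx apart from all other libraries in mitochondrial share, dsx and that share cannot be told apart, and small differences have wide intervals.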
